A study of Mus musculus with 22 samples.

Results

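The 8 Slc30 genes that encode zinc exporters of the ZnT family and were detected in the small intestine of mice were examined: Slc30a1, Slc30a2, Slc30a4, Slc30a5, Slc30a6, Slc30a7, Slc30a9 and Slc30a10. They were matched by Ensembl identifier and are 8 of the 54838 genes in the count table. The libraries came from adult female FVB/N mice that were wild-type for the glucocorticoid receptor (GRWT) or homozygous for a point-mutant receptor that dimerises poorly (GRDim), both from crosses of heterozygous mice. The mutation was present in every cell of the GRDim mice. For 7 days they were given zinc sulfate (ZnSO4, 25 mM) in the drinking water or normal water alone, which made 5 GRWT libraries on water and 5 on zinc, and 6 GRDim libraries on water and 6 on zinc. The labels name 12 libraries as ileum and 10 as IEC, the epithelial cells scraped from the distal ileum. They do not say that each library came from a separate mouse, so p-values measure the spread between these libraries.

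Library totals ran from 13149951 to 15620744 counts, so a floor of 3 counts stood at 0.192 to 0.228 counts divided by library size (counts per 1000000, CPM). This floor covers counting error only. The smooth-muscle myosin gene Myh11 was at 298 to 463 CPM in 12 libraries and at 3.22 to 20.5 CPM in 10. This split did not follow the labels: 7 of the 12 muscle-rich libraries are labelled IEC and 7 of the 10 muscle-poor ones are labelled ileum. Levels and tests are therefore given apart for muscle-rich libraries (3 in each condition) and muscle-poor libraries (GRWT, 2 on water and 2 on zinc; GRDim, 3 on water and 3 on zinc). In GRDim mice each class held 1 label per condition: the muscle-rich libraries were 3 of IEC on water and 3 of ileum on zinc, and the muscle-poor ones 3 of ileum on water and 3 of IEC on zinc. Within a class, zinc and label therefore cannot be told apart in GRDim mice. In GRWT mice, muscle-rich libraries were 2 of IEC and 1 of ileum on either water, and muscle-poor libraries were all of ileum. Genotype and label thus coincide in muscle-poor libraries on zinc, where they cannot be told apart, and in part in muscle-rich libraries on either water. Whether labels or libraries had been exchanged was not tested. In 1 library, GRWT zinc ileum replicate 3, the summed level of 3 ileal markers (Fabp6, Slc10a2 and Fgf15) was 24.5 CPM, against 4800 to 13042 CPM in the other libraries, so its label of ileum was not borne out. Since it is 1 of the 2 muscle-poor libraries of GRWT mice on zinc, fold changes of the Slc30 genes that draw on its group are also given without it. Values of other genes include it.

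Slc30 proteins move zinc out of the cytosol, either across the plasma membrane or into vesicles, the Golgi apparatus or other compartments. They work against the Slc39 (ZIP) importers, which bring zinc into the cytosol. In the gut, the importer Slc39a4 takes up dietary zinc at the brush border and Slc30a1 exports it towards the blood. When cellular zinc rises, the transcription factor MTF1 binds metal response elements (MREs) in promoters such as those of the metallothioneins and Slc30a1. Slc30a10 is an exception in the family, as its main known cargo is manganese.

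All 8 genes had a promoter window in the RefSeq table (GRCm38.p6), which runs from 250 bases before to 50 bases after the RefSeq start. The windows were searched on both strands for the MRE core in the spellings TGCACNC and TGCGCNC, of which at least 1 occurred in 25.7% of 32851 such windows. There were 3 matches in Slc30a10 and in Slc30a4, 2 in Slc30a1 and in Slc30a2, 1 in Slc30a5 and none in Slc30a6, Slc30a7 and Slc30a9. For comparison, 7.11% of windows held at least 2 matches and 1.97% held at least 3. A match is a run of letters and was not measured as a binding site. The matches of Slc30a2 and the window of Slc30a10 are shown because these genes had the largest ranges across the libraries, and the window of Slc30a1 because it is the best known zinc-responsive member. For Slc30a2 the 30 bases around its matches are given. Each sequence reads 5′ to 3′ on the strand of the gene, which is the plus strand in these 3 genes, with the matches in capitals.
Slc30a2, chr4:134343248-134343277: tcccGCGCGCAacttcgaGGGCGCAccgag
Slc30a1, chr1:191906531-191906830: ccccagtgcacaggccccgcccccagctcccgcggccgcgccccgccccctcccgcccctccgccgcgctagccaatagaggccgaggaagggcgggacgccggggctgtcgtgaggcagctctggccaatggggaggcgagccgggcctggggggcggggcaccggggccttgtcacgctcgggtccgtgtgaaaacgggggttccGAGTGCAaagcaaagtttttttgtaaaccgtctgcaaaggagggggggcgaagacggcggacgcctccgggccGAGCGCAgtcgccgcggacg
Slc30a10, chr1:185454598-185454897: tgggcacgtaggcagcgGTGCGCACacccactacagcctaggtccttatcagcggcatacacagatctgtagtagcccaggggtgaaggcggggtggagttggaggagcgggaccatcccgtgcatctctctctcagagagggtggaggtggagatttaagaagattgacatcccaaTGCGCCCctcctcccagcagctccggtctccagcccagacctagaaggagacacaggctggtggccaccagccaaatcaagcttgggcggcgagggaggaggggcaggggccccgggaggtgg
In Slc30a1 the matches lay at -43 to -37 and 31 to 37 from the RefSeq start. In Slc30a10 a pair of matches on opposite strands overlapped between -233 and -226, and another lay at -73 to -67. In Slc30a2 the matches lay at -214 to -208 and -200 to -194 from the RefSeq start, but GENCODE vM21 starts this gene 285 bases further upstream, so that the whole RefSeq window lies inside the gene and the matches lie 71 to 91 bases downstream of that start. They are in the 5′ UTR, within the first exon, of 2 of its 4 transcripts and upstream of the start of the other 2. The starts of both annotations were the same in 6 of the 8 genes and 14 bases apart in Slc30a1.

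The level of each gene was first ordered by CPM per kilobase of annotated exon, a scale on which genes can be compared. In muscle-rich libraries of GRWT mice on water, Slc30a4, a transporter of vesicles, stood highest at 53.0 ± 3.88 CPM per kb (SD, n = 3). Slc30a1, the exporter of the plasma membrane, followed at 32.4 ± 1.06 and Slc30a2, which loads secretory granules and vesicles, at 21.4 ± 2.86. The Golgi transporter Slc30a5 was at 12.9 ± 0.364, Slc30a10 at 9.09 ± 0.760 and Slc30a6, the partner of Slc30a5, at 7.47 ± 0.166. Slc30a9, a mitochondrial transporter, at 6.07 ± 0.257 and Slc30a7, a further Golgi transporter, at 5.54 ± 0.167 were lowest, and no neighbours in this order overlapped in these 3 libraries.

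The order changed with zinc and with genotype. On zinc, Slc30a2 led in GRWT mice at 75.6 ± 5.08 CPM per kb, above Slc30a4 at 53.5 ± 2.92 with no overlap. In GRDim mice on zinc, Slc30a4 at 47.7 ± 1.39, Slc30a2 at 45.6 ± 9.44 and Slc30a1 at 34.7 ± 7.47 overlapped as neighbours. Slc30a10 was the lowest of the 8 in GRDim mice on water, at 2.55 ± 0.669. The order also depends on the length chosen: per kilobase of the principal transcript, Slc30a5 rose to 29.7 ± 0.826 in GRWT mice on water, above Slc30a2 at 24.2 ± 3.23, because its annotated exons cover 7.29 kb and its principal transcript 3.18 kb.

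**Figure D1:**
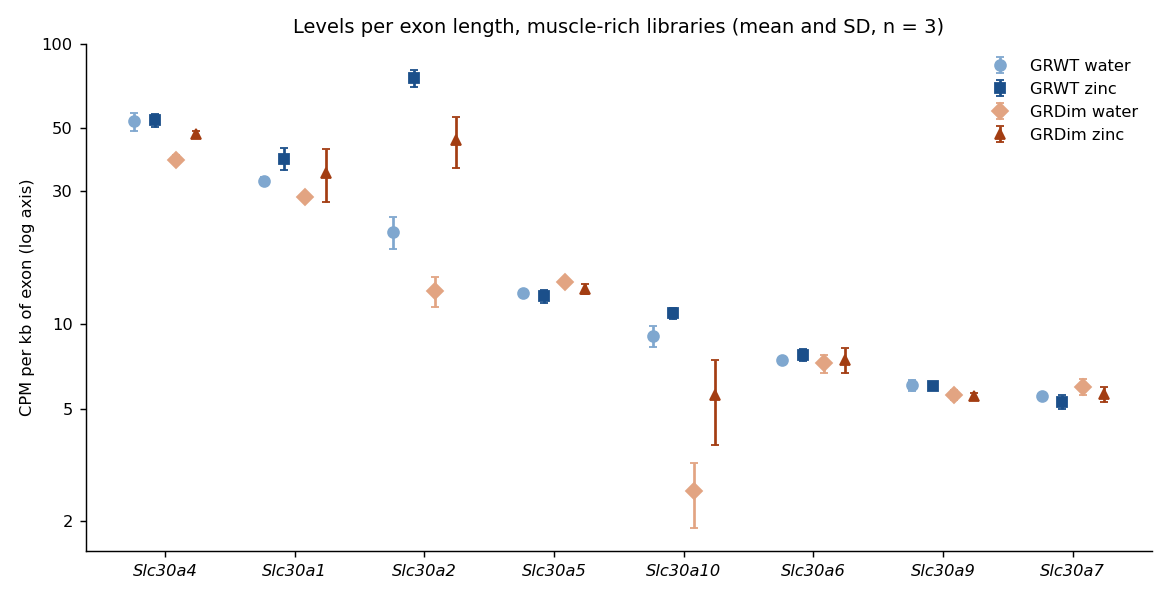
Mean CPM per kilobase of exon (log axis) of the 8 Slc30 genes in muscle-rich libraries, with bars for the SD over 3 libraries in each of the 4 conditions. Slc30a2 moves from 21.4 to 75.6 CPM per kb between GRWT mice on water and on zinc, and Slc30a10 is lowest in GRDim mice on water at 2.55.

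Across the 22 libraries, Slc30a2 had the widest range, from 41.3 to 748 CPM with a median of 113, an 18.1-fold span. Slc30a10 followed, from 10.8 to 83.4 CPM with a median of 40.0, a 7.75-fold span. The other members spanned between 1.39-fold (Slc30a7, 50.7 to 70.5 CPM) and 2.00-fold (Slc30a6, 20.4 to 40.9 CPM). Without GRWT zinc ileum replicate 3, the span was 8.82-fold for Slc30a2 (highest 365 CPM), 6.16-fold for Slc30a10 (highest 66.3 CPM), 1.31-fold for Slc30a6 and between 1.25-fold (Slc30a9) and 1.71-fold (Slc30a1) for the other members. The highest value of Slc30a2, Slc30a10, Slc30a5, Slc30a6 and Slc30a9 and the lowest of Slc30a1 and Slc30a7 all came from that library. These levels are scaled by the trimmed mean of M-values. Of its 14605128 counts, that library held 1370 for Slc30a5, 383 for Slc30a6 and 965 for Slc30a9. Other libraries held up to 1788, 419 and 1231, so the highest values of these genes there rest on the scaling. The Slc30a4 level of GRWT zinc ileum replicate 3, 246 CPM, was also outside the 277 to 309 CPM of the other 4 libraries of GRWT mice on zinc. All 8 genes passed the count filter in every fit, with 165 counts or more in each library. The other Slc30 genes listed, Slc30a3 and Slc30a8, and the zinc transporter gene Tmem163 did not pass it, and their summed level was at most 0.883 CPM.

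**Figure D2:**
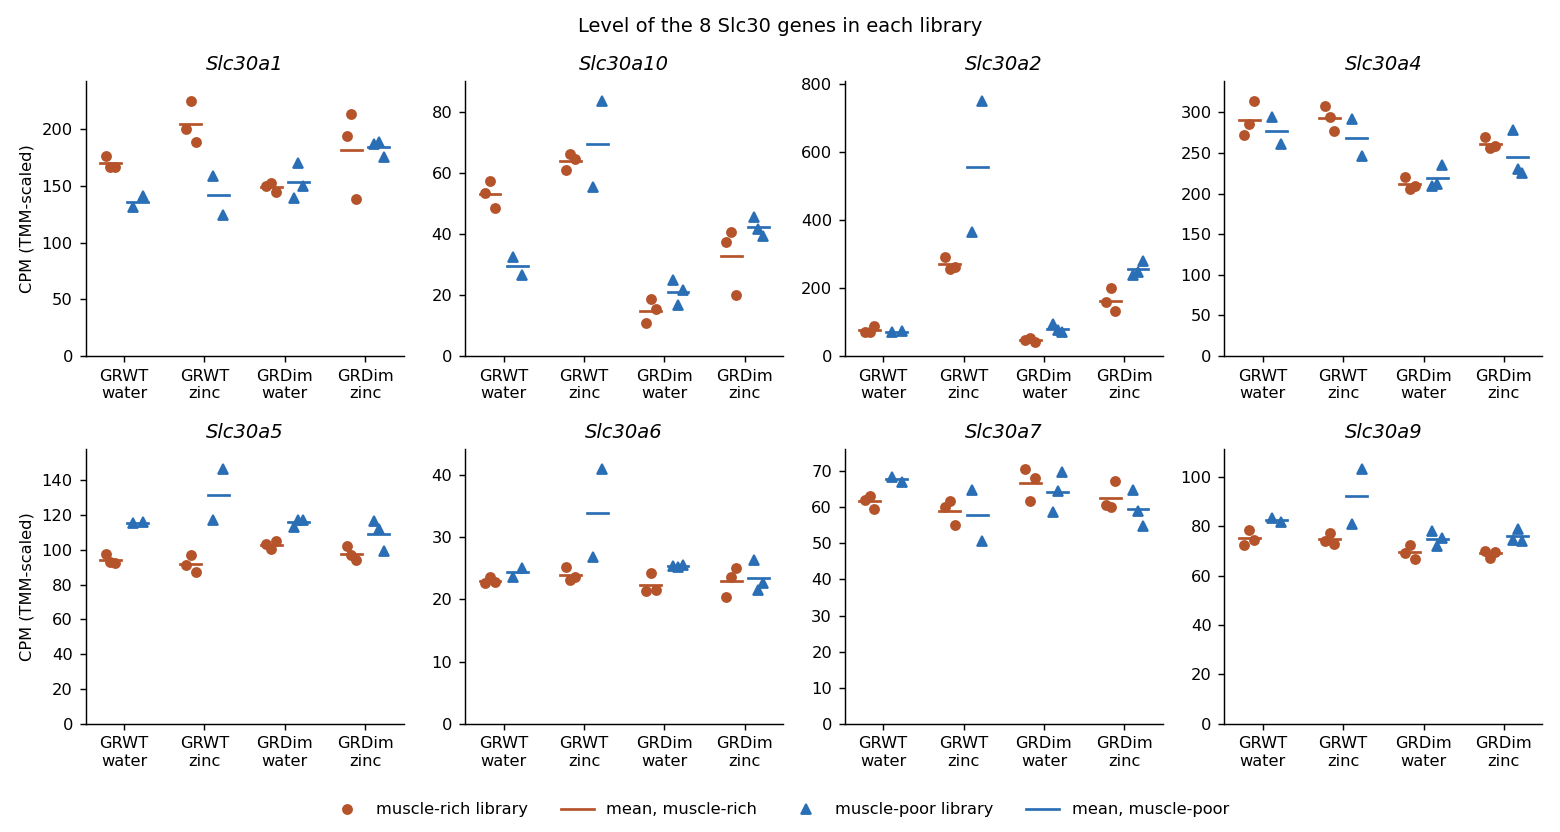
Level of each Slc30 gene (CPM, scaled by the trimmed mean of M-values) in each of the 22 libraries by condition, with circles for muscle-rich and triangles for muscle-poor libraries and lines for the means. Slc30a2 rises from 70.4 to 88.0 CPM on water to 256 to 290 CPM on zinc in muscle-rich libraries of GRWT mice, and the triangle at 748 CPM is GRWT zinc ileum replicate 3.

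The response to zinc was led by Slc30a2, a transporter of secretory vesicles that in the gut is known for loading the granules of Paneth cells. In muscle-rich libraries of GRWT mice it stood at 70.4, 70.4 and 88.0 CPM on water and at 290, 256 and 263 CPM on zinc. In GRDim mice it stood at 46.5, 52.9 and 41.3 CPM on water and at 158, 199 and 132 CPM on zinc. Every zinc library lay above every water library in both genotypes. In GRWT mice the log2 fold change was 1.83 ± 0.16 (SE, adjusted p = 0.0013, edgeR quasi-likelihood test), and in GRDim mice it was 1.77 ± 0.16 (adjusted p = 0.000635). A gene is said to have risen, fallen or passed where this p, with Benjamini-Hochberg adjustment across every gene tested, was under 0.05. Both results passed in each of the 12 fits that left out 1 library.

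The difference of the zinc effect between the genotypes (GRDim minus GRWT) was tested as an interaction. For Slc30a2 in muscle-rich libraries it was -0.05 ± 0.22, with a 95% interval of -0.57 to 0.46 on the log2 scale, and did not pass (adjusted p = 0.934). The interval leaves room for a difference between the genotypes of up to about that much in either direction. In these libraries the label changed with zinc in GRDim mice only, from IEC to ileum. The interaction therefore also holds that change, which cannot be told apart from a difference of the zinc effect.

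In muscle-poor libraries Slc30a2 was at 69.6 and 73.1 CPM in GRWT mice on water and at 365 and 748 CPM on zinc. In GRDim mice it was at 94.3, 76.1 and 70.6 CPM on water and at 238, 247 and 279 CPM on zinc. Again no zinc library overlapped the water libraries. The log2 fold change of GRWT mice, 2.98 ± 0.32, passed (adjusted p = 0.0176). That of GRDim mice, 1.67 ± 0.25, did not pass over all genes (adjusted p = 0.0861). Without GRWT zinc ileum replicate 3, the values were 2.34 ± 0.15 (adjusted p = 3.68e-06) and 1.67 ± 0.10 (adjusted p = 2.86e-06), and both passed. In the 10 fits that left out 1 library each, either value passed in 2, those without either of the zinc libraries of GRWT mice. The former then rests on 1 library of GRWT mice on zinc, which is assumed to vary like the other groups. The interaction of -1.32 ± 0.38 did not pass (adjusted p = 0.749) and was -0.67 ± 0.18 without that library (adjusted p = 0.999). With both muscle classes in 1 fit, the rise of Slc30a2 was 2.25 ± 0.20 for GRWT (adjusted p = 2.23e-06; 2.01 ± 0.16 and 1.65e-06 without GRWT zinc ileum replicate 3) and 1.73 ± 0.18 for GRDim (adjusted p = 2.46e-05).

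Slc30a10, the manganese exporter of the family, responded less evenly. In muscle-rich libraries of GRWT mice it was at 53.3, 57.4 and 48.5 CPM on water and at 61.0, 66.3 and 64.5 CPM on zinc. In GRDim mice it was at 10.8, 18.5 and 15.4 CPM on water and at 37.3, 40.6 and 20.0 CPM on zinc. The groups did not overlap in either genotype, but the lowest zinc library of GRDim mice lay just above the highest water library. The gene rose with zinc in GRDim mice, by 1.11 ± 0.27 (adjusted p = 0.0436). The value in GRWT mice, 0.28 ± 0.25, did not pass (adjusted p = 0.708), and neither did the interaction of 0.84 ± 0.37 (95% interval -0.01 to 1.68, adjusted p = 0.323). This call depended on single libraries: it passed in 1 of the 12 fits that left out a library, that without GRDim zinc ileum replicate 3, where it was 1.37 ± 0.17 (adjusted p = 0.000765). It was also lost with the weaker count filter (adjusted p = 0.072). The interaction passed in the fit without GRDim zinc ileum replicate 3 as well, at 1.10 ± 0.22 (adjusted p = 0.0324).

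GRDim zinc ileum replicate 3, the library with 20.0 CPM of Slc30a10, also had the lowest summed Paneth cell and ileal markers of its group. The 9 Paneth cell markers summed to 2172 CPM there, against 5033 and 3510 CPM in the other 2 libraries, and the 3 ileal markers to 5318 CPM, against 9273 and 8173 CPM. Between zinc and water in muscle-rich libraries of GRDim mice, 1 of the 3 ileal markers rose, the bile acid transporter gene Slc10a2, by 0.57 ± 0.10 (adjusted p = 0.00571), where 7.7% of all genes passed, and the ileal sums were 4800 to 6123 CPM on water and 5318 to 9273 CPM on zinc. None of 9 Paneth cell, 10 smooth muscle and 10 epithelial markers passed in that comparison. The part of these differences in the levels of Slc30a10 and Slc30a4, which also rose there, was not tested.

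In muscle-poor libraries Slc30a10 was at 32.5 and 26.6 CPM in GRWT mice on water and at 55.2 and 83.4 CPM on zinc, and at 24.8, 16.7 and 21.5 CPM in GRDim mice on water and at 45.4, 41.7 and 39.5 CPM on zinc. All zinc libraries were above the water libraries of their genotype. The log2 fold changes did not pass, with 1.25 ± 0.24 for GRWT (adjusted p = 0.228) and 1.01 ± 0.19 for GRDim (adjusted p = 0.212). Without GRWT zinc ileum replicate 3 the former was 0.89 ± 0.18 (adjusted p = 0.103), and the latter passed at 1.01 ± 0.13 (adjusted p = 0.0016). In the fit of all 22 libraries the rise in GRDim mice passed at 1.06 ± 0.22 (adjusted p = 0.0176), and the value in GRWT mice, 0.58 ± 0.23, did not (adjusted p = 0.245; 0.50 ± 0.25 and 0.473 without GRWT zinc ileum replicate 3). The former call was lost with the tissue label in place of muscle class (adjusted p = 0.0874), with no covariate (adjusted p = 0.0646), and without GRDim water IEC replicate 4 (adjusted p = 0.053) or 6 (adjusted p = 0.0502).

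The first exon of Slc30a10 shares sequence with Gm2061, a non-coding gene on the opposite strand (chr1:185447116-185455568). The library kit marks strand, but the strand setting of the counting is not stated, so reads of this stretch may have been assigned to either gene. Gm2061 had 36 to 353 counts in a library, against 165 to 1013 for Slc30a10. The ratio of their CPM lay between 2.73 and 5.65 in 21 libraries and was 17.0 in GRWT zinc ileum replicate 3. Levels of the pair thus moved together outside that library, and how far shared reads account for this was not tested. On the log2 scale, Gm2061 differed by 1.21 ± 0.37 between zinc and water in muscle-rich libraries of GRDim mice (adjusted p = 0.0823).

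**Figure D3:**
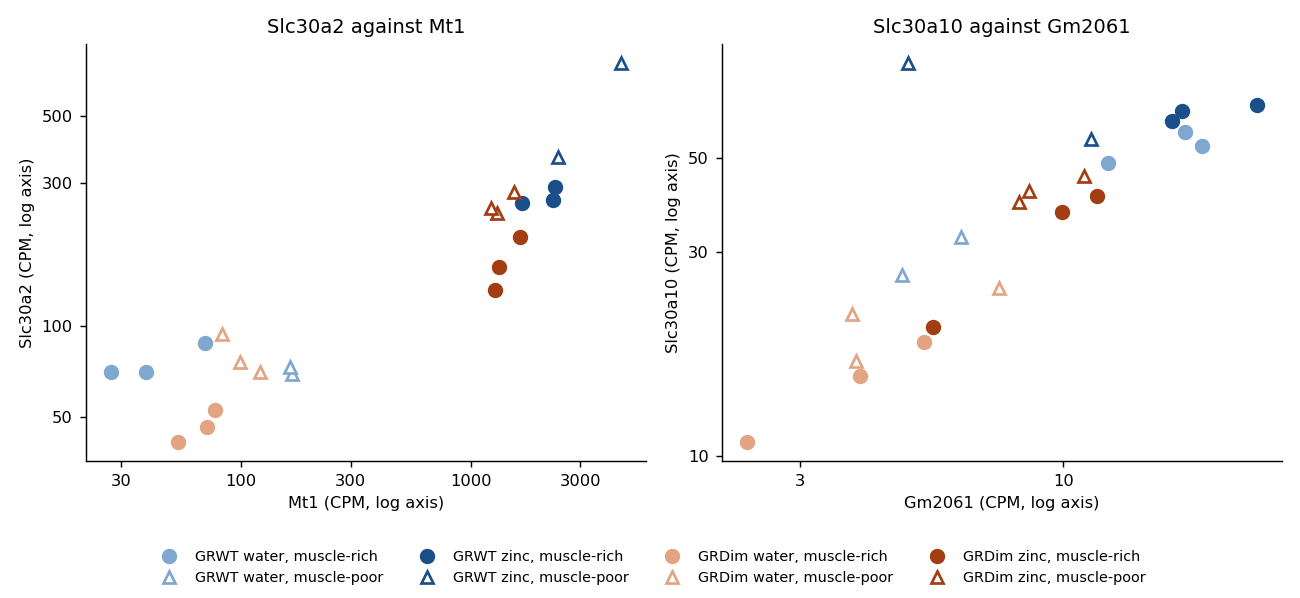
Slc30a2 against the metallothionein gene Mt1 (left) and Slc30a10 against the overlapping gene Gm2061 (right), each point 1 of 22 libraries in CPM on log axes, coloured by condition, filled circles muscle-rich and open triangles muscle-poor. Water and zinc libraries form separate groups on the left, and the open triangle high on the right panel is GRWT zinc ileum replicate 3, with a ratio of 17.0.

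Slc30a1, the plasma-membrane exporter, moved little beside Slc30a2. In muscle-rich libraries of GRWT mice it was at 176, 167 and 167 CPM on water and at 200.0, 225 and 189 CPM on zinc. In GRDim mice it was at 150.1, 153 and 145 CPM on water and at 195, 213 and 138 CPM on zinc. The groups were apart in GRWT mice and overlapped in GRDim mice. Neither log2 difference passed, at 0.27 ± 0.13 for GRWT (95% interval -0.03 to 0.58, adjusted p = 0.469) and 0.27 ± 0.13 for GRDim (adjusted p = 0.274). Without GRDim zinc ileum replicate 3 the latter was 0.44 ± 0.07 and passed (adjusted p = 0.00169). In muscle-poor libraries the difference of Slc30a1 was 0.07 ± 0.14 for GRWT (adjusted p = 0.791; 0.22 ± 0.12 and 0.6 without GRWT zinc ileum replicate 3) and 0.26 ± 0.12 for GRDim (adjusted p = 0.634). A smaller non-coding gene, 1700034H15Rik, overlaps it on the other strand with at most 20 counts.

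Slc30a4, the vesicular transporter, rose with zinc in muscle-rich libraries of GRDim mice. It was at 221, 206 and 209 CPM on water and at 270.0, 256 and 258 CPM on zinc, with no overlap. The log2 fold change was 0.28 ± 0.06 (adjusted p = 0.0166) and passed in 8 of 12 fits without a library, but not in a fit of both classes as 8 groups (adjusted p = 0.173). In GRWT mice the levels of 272, 286 and 314 CPM on water and 309, 295 and 277 CPM on zinc overlapped, with a log2 difference of 0.02 ± 0.06 (adjusted p = 0.926). The interaction of 0.26 ± 0.09 (95% interval 0.05 to 0.47) did not pass over all genes (adjusted p = 0.201), so the zinc effect was not shown to differ between the genotypes. In muscle-poor libraries the values were -0.03 ± 0.15 in GRWT mice and 0.16 ± 0.12 in GRDim mice, and neither passed (adjusted p = 0.92 and 0.842). The former changed sign without GRWT zinc ileum replicate 3, to 0.06 ± 0.14 (adjusted p = 0.927), and neither value passed then. In the fit of all 22 libraries the value in GRDim mice, 0.23 ± 0.07, did not pass (adjusted p = 0.0741), and it passed in 2 of 22 fits without a library, 1 of them that without GRWT zinc ileum replicate 3 (0.22 ± 0.05, adjusted p = 0.0121).

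The transporters of the Golgi and secretory pathway, Slc30a5, Slc30a6 and Slc30a7, and the mitochondrial Slc30a9 did not pass in any of these comparisons of zinc with water. In muscle-rich libraries their log2 differences lay between -0.06 (Slc30a7) and 0.07 (Slc30a6) in GRWT mice and between -0.11 (Slc30a7) and 0.02 (Slc30a6) in GRDim mice. In muscle-poor libraries of GRWT mice Slc30a6 differed by 0.49 ± 0.20 (adjusted p = 0.271) and by 0.13 ± 0.14 without GRWT zinc ileum replicate 3. That library held 40.9 CPM and the other 26.9 CPM after scaling, from 383 and 352 counts.

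In count, 1 of the 8 genes rose with zinc in muscle-rich libraries of GRWT mice (0.383% of 15947 genes passed) and 3 rose in GRDim mice (7.7% passed). None fell in these 2 comparisons. In muscle-poor libraries 1 rose in GRWT mice (0.0431% of 13908 genes passed) and none passed in GRDim mice (0.0575% passed), where 2 had an unadjusted p under 0.05 and DESeq2 called 2, Slc30a2 and Slc30a10. In the fit of all libraries 1 rose in GRWT mice (0.313% of 15641 genes passed) and 2 in GRDim mice (1.75% passed). The interaction passed for no member. It did so for 0.263% of genes in muscle-rich libraries, 0% in muscle-poor libraries and 0% in all libraries, and DESeq2 called none of the 8 either, while 1, 2 and 1 members had an unadjusted p under 0.05. The median log2 difference of the 8 genes with zinc in muscle-rich libraries was 0.05 in GRWT mice and 0.14 in GRDim mice, against 0.01 and -0.01 over all genes tested.

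**Figure D4:**
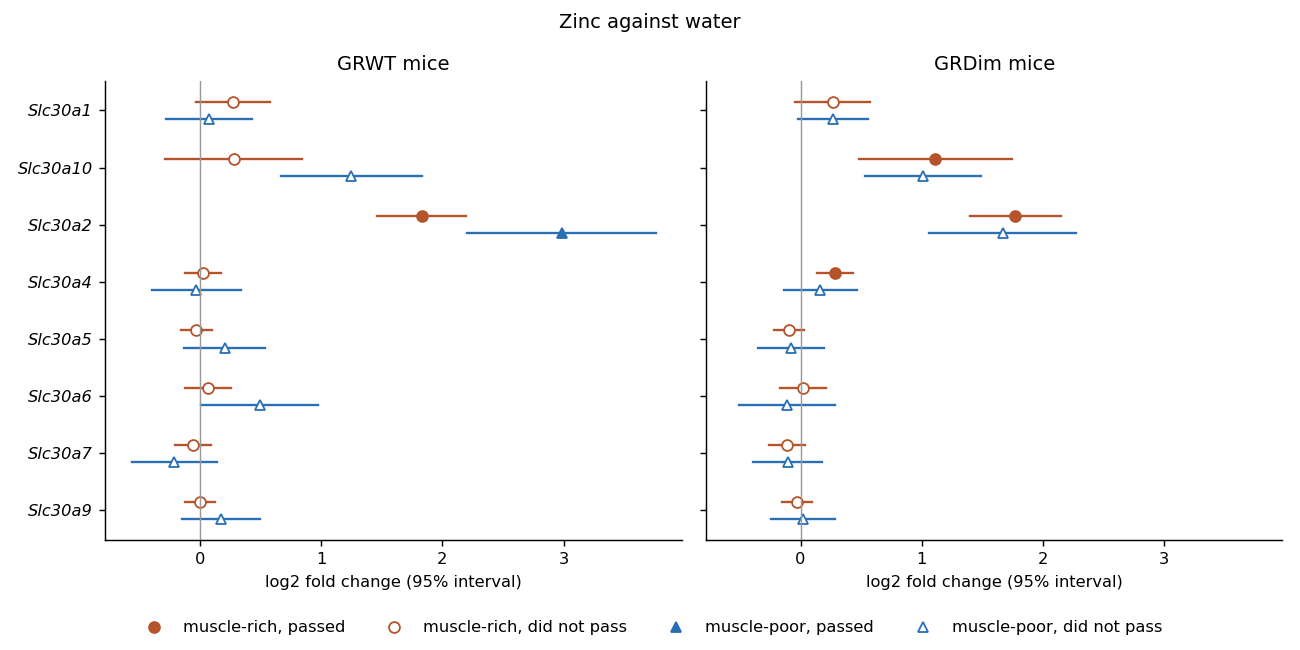
Log2 fold change of zinc against water for each Slc30 gene in GRWT mice (left) and GRDim mice (right), with 95% intervals, circles for muscle-rich and triangles for muscle-poor libraries, filled where the adjusted p was under 0.05. Slc30a2 lies between 1.67 and 2.98 in all 4 groups, and the Golgi and mitochondrial members lie near 0 in muscle-rich libraries.

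Other genes of zinc handling were set beside the exporters. Of the 4 genes for zinc storage and sensing, the metallothionein genes Mt1, Mt2 and Mt4 rose with zinc in both genotypes and both muscle classes, and the zinc sensor Mtf1 did not pass in these 4 comparisons. In muscle-rich libraries Mt1, whose product binds cytosolic zinc, rose on the log2 scale by 5.53 ± 0.37 where the receptor was wild-type (adjusted p = 0.00128) and by 4.37 ± 0.35 where it was mutant (adjusted p = 0.000635). Of the 14 importer genes, 12 were tested, and 1 passed in each of these comparisons: Slc39a4, the importer of dietary zinc. This 1 of 12 stands near the background for GRDim mice in muscle-rich libraries, where 7.7% of all genes passed, and in the other 3 comparisons 0.383% of genes passed (GRWT, muscle-rich), 0.0431% (GRWT, muscle-poor) and 0.0575% (GRDim, muscle-poor). Its log2 fold changes were -2.62 ± 0.17 (GRWT) and -1.62 ± 0.17 (GRDim) in muscle-rich libraries, and -2.48 ± 0.18 (GRWT) and -1.70 ± 0.14 (GRDim) in muscle-poor libraries. The exporter Slc30a2 and the importer Slc39a4 thus moved in opposite directions.

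The manganese transport genes were listed because of Slc30a10. None of the 6 passed with zinc in GRWT mice, where 0.383% of all genes passed in muscle-rich and 0.0431% in muscle-poor libraries. In muscle-rich libraries of GRDim mice 1 rose, Slc11a2, which encodes a brush-border importer of iron and other divalent metals, by 0.46 ± 0.11 (adjusted p = 0.0281). Alkaline phosphatases were listed because they are zinc enzymes that Slc30a5, Slc30a6 and Slc30a7 are known to supply. In muscle-rich libraries of GRDim mice 2 of 4 rose with zinc, Alpi by 0.67 ± 0.11 (adjusted p = 0.00299) and Akp3 by 2.60 ± 0.70 (adjusted p = 0.034), and none passed in GRWT mice. In muscle-rich libraries of GRDim mice 7.7% of all genes passed, and in those of GRWT mice 0.383% did. Nothing is therefore read from the contrast between the genotypes in these lists.

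In muscle-rich libraries Slc30a10 and Slc30a2 were lower in GRDim mice on water and on zinc, and Slc30a4 on water. On water the muscle-rich GRDim libraries held 10.8 to 18.5 CPM of Slc30a10 and the GRWT libraries 48.5 to 57.4 CPM. The log2 difference of -1.81 ± 0.27 passed (adjusted p = 0.000831), here and in each of 12 fits without a library. On zinc the ranges were 20.0 to 40.6 CPM and 61.0 to 66.3 CPM, and the difference of -0.98 ± 0.25 passed (adjusted p = 0.0282), with 9 of 12 fits without a library. In each of these comparisons the genotypes did not overlap. Gm2061, which overlaps Slc30a10, was also lower, with differences of -2.05 ± 0.35 on water (adjusted p = 0.00157) and -1.11 ± 0.32 on zinc (adjusted p = 0.0425).

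For Slc30a2 the muscle-rich libraries of GRDim mice stood at 41.3 to 52.9 against 70.4 to 88.0 CPM on water and at 132 to 199 against 256 to 290 CPM on zinc. The log2 differences of -0.68 ± 0.16 (adjusted p = 0.00802) and -0.74 ± 0.15 (adjusted p = 0.009) passed in all fits without a library. Slc30a4 was lower on water, at 206 to 221 against 272 to 314 CPM, a difference of -0.44 ± 0.06 (adjusted p = 9.37e-05). On zinc the ranges of 256 to 270.0 and 277 to 309 CPM still did not overlap, but the difference of -0.18 ± 0.06 did not pass (adjusted p = 0.0662). Slc30a5 was higher on water, at 100.5 to 105 against 92.6 to 97.4 CPM, by 0.14 ± 0.05 (adjusted p = 0.0495), a call that held in 4 of 12 fits without a library and was lost with DESeq2 (adjusted p = 0.101), with its size factors (adjusted p = 0.0723), with the weaker count filter (adjusted p = 0.0513) and in the fit of 8 groups (adjusted p = 0.275). Slc30a1 on water was at 145 to 153 against 167 to 176 CPM without overlap, yet its difference of -0.17 ± 0.13 did not pass (adjusted p = 0.35).

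Markers of other cells differed between the genotypes in the same libraries. The summed level of 9 Paneth cell markers was 2624 to 2847 CPM in muscle-rich libraries of GRDim mice on water and 7401 to 9308 CPM in those of GRWT mice, and 7 of the 9 were lower, where 38.7% of all genes passed, with a median log2 difference of -1.64. On zinc the sums were 2172 to 5033 and 6581 to 9133 CPM, and again 7 of 9 were lower, where 18.8% of all genes passed. No Paneth cell marker was at 0 in any library, the lowest value being 1.92 CPM of Defa22. Of 10 smooth muscle markers 6 were lower on water, with sums of 1755 to 1985 against 2313 to 2533 CPM. The 3 ileal markers summed to 4800 to 6123 against 7850 to 9524 CPM on water, and 2 of them were lower. The 10 epithelial markers summed to 17663 to 18827 against 16785 to 17321 CPM, with 4 higher and 2 lower. The counts of smooth muscle, ileal and epithelial markers on water have the same background of 38.7%. On zinc the smooth muscle sums were 1550 to 1988 against 1679 to 2212 CPM, and the ileal sums 5318 to 9273 against 8776 to 10999 CPM. The epithelial sums were 19539 to 19933 against 15809 to 18116 CPM. In bulk libraries fewer cells of a type and less RNA per cell cannot be told apart, and the part of these markers in the lower Slc30a2, Slc30a4 and Slc30a10 levels was not tested.

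In muscle-poor libraries no member passed between the genotypes. On water Slc30a10 was at 16.7 to 24.8 CPM in GRDim mice and at 26.6 and 32.5 CPM in GRWT mice, a log2 difference of -0.50 ± 0.22 (adjusted p = 0.88). Slc30a4 differed by -0.35 ± 0.14 (adjusted p = 0.828), without overlap between 210 to 236 and 261 to 294 CPM. Slc30a2 overlapped, with a difference of 0.16 ± 0.27 (adjusted p = 0.991). On zinc the differences were -1.15 ± 0.27 for Slc30a2 and -0.74 ± 0.21 for Slc30a10 (adjusted p = 0.146 for both), between 3 libraries labelled IEC and 2 labelled ileum. Without GRWT zinc ileum replicate 3 they were -0.51 ± 0.14 (adjusted p = 0.283) and -0.38 ± 0.17 (adjusted p = 0.52). Slc30a1 went the other way on zinc, by 0.36 ± 0.13 (adjusted p = 0.173), and Slc30a6 differed by -0.55 ± 0.18 (adjusted p = 0.152). Over the fits without 1 library these lay between 0.22 and 0.54 and between -0.83 and -0.18. None of the 9 Paneth cell markers passed in muscle-poor libraries, where 0.0288% of all genes passed on water and 0.0575% on zinc, so that nothing is read from this count. They summed to 3708 to 4845 CPM in GRDim mice and 4847 and 6918 CPM in GRWT mice on water.

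Whether a genotype effect differed between the muscle classes was tested in a fit of all 8 groups, chosen after the data had been seen. In GRDim mice on either water each class held 1 label, so class and label cannot be told apart there. On water the difference between the classes (muscle-rich minus muscle-poor) was -1.34 ± 0.35 for Slc30a10 (adjusted p = 0.0756) and -0.87 ± 0.31 for Slc30a2 (adjusted p = 0.213), and none of the 8 passed, where 1.41% of 15641 genes did. Without GRWT zinc ileum replicate 3 the values were -1.34 ± 0.35 (adjusted p = 0.033) and -0.87 ± 0.23 (adjusted p = 0.0291), and these 2 genes passed, as did 7.81% of all genes. On zinc no member passed (3.18% of genes did; 3 members had an unadjusted p under 0.05). Zinc effects did not pass for any member either, with 0.0192% of genes in GRWT mice and 0% in GRDim mice, and with 3 and 0 members at an unadjusted p under 0.05.

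In count, 3 of the 8 genes were lower and 1 higher in GRDim mice on water in muscle-rich libraries, where 38.7% of genes passed, and 2 were lower on zinc, where 18.8% passed. These shares, 4 of 8 and 2 of 8, stand near the background. The median log2 difference of the 8 genes was -0.13 on water and -0.15 on zinc, against 0.00 and -0.02 over all genes tested. In muscle-poor libraries 0.0288% of genes passed on water and 0.0575% on zinc. None of the 8 did, while 2 and 6 had an unadjusted p under 0.05 and DESeq2 called none on water and 2 on zinc, Slc30a2 and Slc30a10. In the fit of all libraries Slc30a4 (-0.40 ± 0.07, adjusted p = 0.00101) and Slc30a10 (-1.31 ± 0.23, adjusted p = 0.00124) were lower on water, where 17% of genes passed. On zinc Slc30a2 (-0.90 ± 0.18, adjusted p = 0.011), Slc30a10 (-0.83 ± 0.22, adjusted p = 0.0259) and Slc30a9 (-0.19 ± 0.06, adjusted p = 0.0421) were lower, where 11% passed. Without GRWT zinc ileum replicate 3, Slc30a9 (-0.11 ± 0.04, adjusted p = 0.129) and Slc30a10 (-0.73 ± 0.25, adjusted p = 0.0702) no longer passed on zinc, Slc30a2 still did (-0.63 ± 0.16, adjusted p = 0.0201), and Slc30a4 did as well (-0.20 ± 0.06, adjusted p = 0.0409). On water Slc30a9 passed without that library (-0.12 ± 0.04, adjusted p = 0.0334). On zinc Slc30a9 passed in 4 of 22 fits without a library. With the tissue label in place of muscle class none of the 3 calls on zinc held (adjusted p = 0.144 for Slc30a2, 0.0897 for Slc30a10 and 0.286 for Slc30a9), and none held with no covariate (0.0931, 0.0708 and 0.237).

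**Figure D5:**
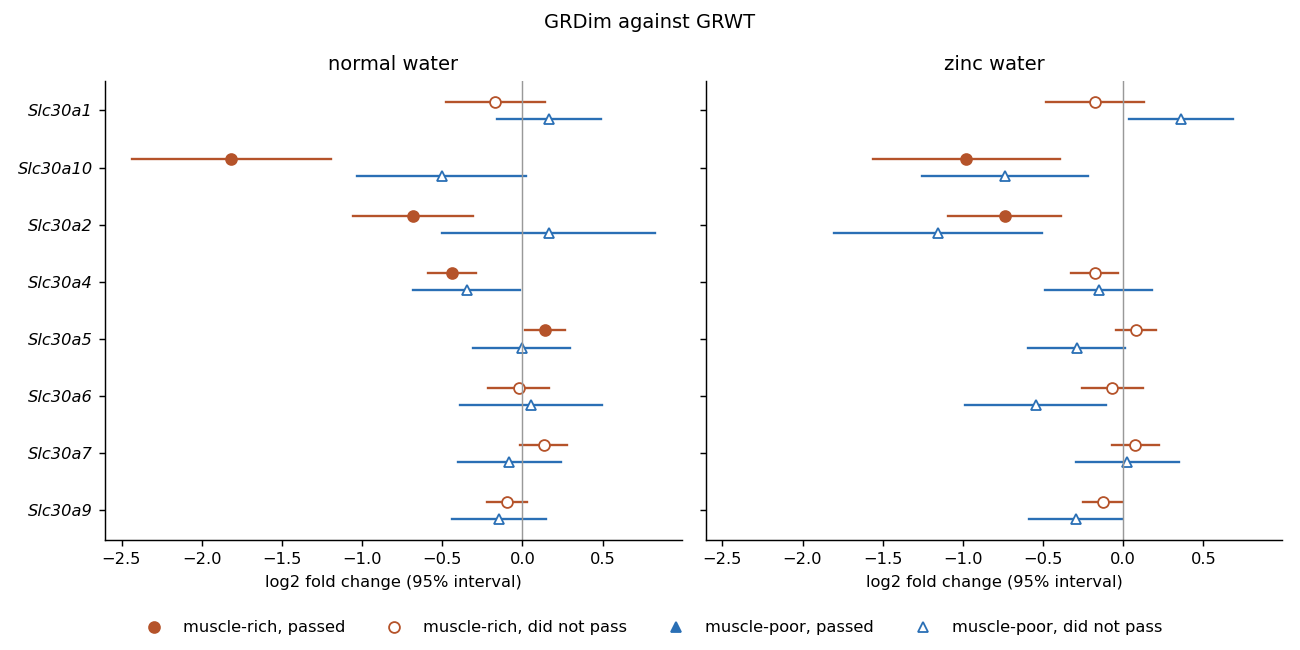
Log2 fold change of GRDim against GRWT for each Slc30 gene on water (left) and on zinc (right), with 95% intervals, circles for muscle-rich and triangles for muscle-poor libraries, filled where the adjusted p was under 0.05. Slc30a10 is at -1.81 on water in muscle-rich and at -0.50 in muscle-poor libraries, and Slc30a2 is at -0.68 and 0.16.

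Among the other listed genes in muscle-rich libraries on water, 4 of 12 importer genes were lower in GRDim mice and 2 higher, where 38.7% of all genes passed, so that 6 of 12 stands near the background. The difference was -0.66 ± 0.16 for Slc39a4 (adjusted p = 0.00946) and -0.52 ± 0.08 for Slc39a14, a zinc and manganese importer of the basolateral side (adjusted p = 0.000207). Of the 6 manganese transport genes 2 were lower, a share below that background, Slc39a14 and the Golgi manganese pump gene Atp2c1 (-0.25 ± 0.06, adjusted p = 0.00298). Of the 4 alkaline phosphatase genes 3 were lower and Alpl was higher by 1.28 ± 0.31 (adjusted p = 0.00436). The metallothionein genes and Mtf1 did not pass on water.

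Levels in the muscle classes were set side by side without a test. Slc30a5 was lower in muscle-rich libraries without overlap in 3 of the 4 conditions, at 94.4 against 116 CPM on average in GRWT mice on water, 92.0 against 132 CPM in GRWT mice on zinc and 103 against 116 CPM in GRDim mice on water. In GRDim mice on zinc it overlapped, at 97.8 against 109 CPM. Slc30a6 was likewise lower without overlap in all conditions but GRDim mice on zinc, and Slc30a9 in all but GRDim mice on water. Slc30a7 was so in GRWT mice on water only, and Slc30a4 overlapped throughout. Slc30a1 was higher without overlap in muscle-rich libraries of GRWT mice, at 170 against 136 CPM on water and 204 against 142 CPM on zinc. The share of all genes that separate between the classes was not computed. Slc30a10 was higher in muscle-rich libraries of GRWT mice on water, at 53.1 against 29.6 CPM without overlap, and overlapped in the other conditions, at 14.9 against 21.0 CPM in GRDim mice on water. Slc30a2 in GRDim mice was at 46.9 against 80.3 CPM on water and at 163 against 254 CPM on zinc, lower in muscle-rich libraries in both without overlap. In GRWT mice it overlapped on water, at 76.3 against 71.3 CPM, and on zinc the muscle-rich libraries, at 269 CPM on average, lay below both muscle-poor ones, at 365 and 748 CPM.

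Likeness between patterns was described by Pearson's r of log2 CPM over the 22 libraries, centred within each muscle class. The libraries share conditions, so r has no p. The pattern most like that of Slc30a2 among 12928 genes was that of Fam210b (r = 0.971; 0.970 over the 21 libraries without GRWT zinc ileum replicate 3), then Ppp1r21 (0.949 and 0.946) and Bahd1 (0.946 and 0.933). Over 21 libraries Fam210b still led, followed by Gsto1 (0.959) and Ppp1r21. For Slc30a10 the nearest genes were Rab40c (0.949), Cnppd1 (0.949) and Mroh7 (0.941) over 22 libraries, and Cda, Aadac and Slc26a6 (0.955 each) over 21. Slc30a1 had less close neighbours, Gdpd5 (0.853), Serf1 (0.819) and Mreg (0.819) over 22 libraries, and Sst (0.870), Tysnd1 (0.843) and Rgp1 (0.842) over 21. For these 2 members the nearest genes thus changed with 1 library. Within the family Slc30a2 and Slc30a10 were most alike over 22 libraries (r = 0.766; 0.724 over 21), and Slc30a4 and Slc30a10 over 21 (0.774; 0.721 over 22). The pair of Slc30a1 and Slc30a2 went from 0.460 over 22 libraries to 0.743 over 21, and that of Slc30a5 and Slc30a7 from 0.036 to 0.730. Slc30a2 and Slc30a7 were most opposed in either set (r = -0.699 and -0.599). With Mt1, r was 0.921 for Slc30a2 (0.923 over 21 libraries), 0.543 for Slc30a10 (0.487), 0.446 for Slc30a1 (0.615) and -0.495 for Slc30a7 (-0.410). Mt1 was at 27.2 to 167 CPM on water and at 1229 to 4499 CPM on zinc, so r with it spans groups that lie apart. How far these groups set r was not tested, as r within the water or the zinc libraries was not computed.

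The genes lie on several chromosomes (GRCm38, GENCODE vM21). Slc30a1 and Slc30a10 are on chromosome 1, at chr1:191906767-191913247 and chr1:185454848-185468762, both on the plus strand. Slc30a2 is at chr4:134343181-134354484, Slc30a6 at chr17:74395608-74424221 and Slc30a9 at chr5:67306955-67358443, on the plus strand, and Slc30a4 at chr2:122681233-122702663, Slc30a5 at chr13:100802648-100833427 and Slc30a7 at chr3:115938973-116007406, on the minus strand. Exon sequence is shared with a gene on the other strand in Slc30a1, Slc30a4, Slc30a7 and Slc30a10. Outside Slc30a10 these partners had at most 20 counts in a library, against 475 or more for the member.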

How the data were processed

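Stranded single-end libraries of mouse small intestine were sequenced by the authors, trimmed with Trimmomatic, mapped to mm10 with HISAT2 2.0.4 and counted per gene with featureCounts without multimapping reads; strand setting and annotation release are not given in the sources used here. The authors deposited raw read counts, not normalized. For GRDim on water, 2 ileum columns have the same name and were left unnumbered. All rows name a gene. Groups follow the labels, and muscle classes follow Myh11 above or below 100 CPM.

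Counts were tested with edgeR 4.0.16 in R 4.3.3 (TMM scaling, filterByExpr, quasi-likelihood tests), apart for muscle-rich and muscle-poor libraries and over all 22 with muscle class as covariate, in 4 conditions. The code was tested on simulated data. CPM are TMM-scaled, and log2 CPM used a prior count of 2. DESeq2 1.42.0, its size factors, other filters, a log2 cut-off of 0.8, the tissue label, a replicate block and leaving out each library were the alternatives. The 8 genes and the gene lists were chosen with earlier results of these data known. All members were tested in every comparison, and those not named in a comparison between genotypes did not pass there with all its libraries. Other named genes were list genes that passed, and the 3 genes most like Slc30a1, Slc30a2 and Slc30a10. Gm2061 was added because it overlaps Slc30a10. Gene positions came from GENCODE vM21 and promoters from RefSeq (GRCm38.p6).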

Additional observations from a re-analysis of the deposited data

Results flagged for a closer look

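Values that stand apart within a condition were sought by Dixon's ratio in 32 sets, 1 for each gene and condition with both muscle classes together. Its rate of about 1 in 20 by chance holds for samples of 1 normal distribution. Levels of several members differed between the classes, so the count is not set against that rate. There were 5 such values. In GRWT mice on zinc, replicate 3 of ileum held 748 CPM of Slc30a2 (256 to 365 CPM in the other 4 libraries), 40.9 CPM of Slc30a6 (23.1 to 26.9 CPM) and 103 CPM of Slc30a9 (73.0 to 81.1 CPM). These levels are scaled by the trimmed mean of M-values. In counts, that library held 383 of Slc30a6, against 335 to 419 in the other 4, and 965 of Slc30a9, against 1063 to 1231. It had 14605128 counts in all, and the other 4 had 13733072 to 15620744. The flags of Slc30a6 and Slc30a9 thus rest on the scaling. In GRWT mice on water, ileum replicate 1 held 88.0 CPM of Slc30a2 (69.6 to 73.1 CPM). In GRDim mice on zinc, ileum replicate 3 held 20.0 CPM of Slc30a10 (37.3 to 45.4 CPM).

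The difference of the genotype effect on water between the muscle classes was -0.87 ± 0.31 for Slc30a2 and -1.34 ± 0.35 for Slc30a10. Neither passed with all libraries (adjusted p = 0.213 and 0.0756, edgeR quasi-likelihood test). They passed only in the fit without GRWT zinc ileum replicate 3, where the estimates were still -0.87 ± 0.23 and -1.34 ± 0.35. That library is on neither side of this comparison, and its group then held 1 library. In GRDim mice on water each class held 1 label, so class and label cannot be told apart.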

How the results depend on the processing

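The alternatives gave 2480 values for the 8 genes, of which 2353 kept their direction and side of the threshold or, where not called, their side of it; 83 calls were lost, 44 were gained, none that was called reversed, and 94 values without a call changed sign. Of 120 values each, DESeq2 lost 1 call and gained 7, DESeq2 size factors lost 2, the weaker count filter lost 4 and gained 1, and the required log2 fold change over 0.8 lost 7. In muscle-rich libraries the latter left 1 member between genotypes on water and 1 on zinc, Slc30a10 in both, and in all libraries 1 on water, Slc30a10. In muscle-poor libraries DESeq2 called 2 members with zinc in GRWT mice, 2 in GRDim mice and 2 between genotypes on zinc. There the weaker count filter called 1 in GRDim mice on zinc against water, and the fit of all 8 groups called 3, 2 and 4 in these 3 comparisons. In muscle-rich libraries the fit of 8 groups lost 2 calls, Slc30a4 with zinc in GRDim mice (adjusted p = 0.173) and Slc30a5 between genotypes on water (adjusted p = 0.275). In all libraries the weaker filter left 1 member between genotypes on zinc. The tissue label as covariate, or no covariate, left 1 with zinc in GRDim mice and 0 between genotypes on zinc. The cause of these changes was not tested.

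Leaving out 1 library at a time gave, in muscle-rich libraries, 1 to 4 members with zinc in GRDim mice, 0 to 1 for the interaction and 1 to 3 between genotypes on zinc. The low counts came from fits without GRDim water IEC replicate 5 or 6, GRDim zinc ileum replicate 1 or 2, or GRWT zinc IEC replicate 4 or 5. In muscle-poor libraries it gave 0 to 6 with zinc in GRWT mice, 0 to 2 with zinc in GRDim mice, 0 to 3 for the interaction and 0 to 6 between genotypes on zinc, the highest without GRWT zinc ileum replicate 2, where replicate 3 stands alone and is assumed to vary like the other groups. The highest with zinc in GRDim mice also came without GRWT zinc ileum replicate 3. The 0 for GRWT mice came from the 8 fits without a library of another group. In all libraries it gave 1 to 3 with zinc in GRDim mice, lowest without GRDim water IEC replicate 4 or 6, and 1 to 3 between genotypes on zinc, lowest without GRDim zinc ileum replicate 3.

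Replicate numbers did not pair the samples: over 25 same-numbered pairs, deviations from the group means correlated at -0.103 to 0.135, 1 pair was over 0.1, and 0 of 20 numbered libraries correlated best with their own number. With the replicate block, 0 members passed between genotypes on zinc, against 2 in the same numbered libraries without it (chosen after the data were seen; with the block the adjusted p was 0.0694 for Slc30a2 and 0.0686 for Slc30a10), and 3 with zinc in GRDim mice, against 2. Every member had at least 165 counts in each library. In muscle-poor libraries the standard error of the zinc effect on Slc30a2 fell from 0.32 to 0.15 in GRWT mice and from 0.25 to 0.10 in GRDim mice without GRWT zinc ileum replicate 3.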
